A study of Arabidopsis thaliana with 6 samples.

Results

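The genes described here lie in the core of the 5 pericentromeres of Arabidopsis thaliana and were measured in wild-type seedlings and in seedlings of the mutants bin4-1 and bin4-2. Members were chosen by locus number, which follows the order of genes along a chromosome. The windows ran from AT1G35000 up to AT1G44500 on chromosome 1, from AT2G04500 up to AT2G13500 on chromosome 2 and from AT3G29500 up to AT3G44500 on chromosome 3. On chromosome 4 the window began at AT4G04000 and ended at AT4G08500, and on chromosome 5 it began at AT5G27700 and ended at AT5G36500. A gene had to be the single gene named by a probe set, the group of short array probes that together report on a transcript. The rule took 1147 of 13355 such genes. RefSeq (assembly TAIR10.1) lists 551 of them as protein-coding and 588 as pseudogenes, and 8 were not matched to it. The windows hold 1432 protein-coding genes and 3137 pseudogenes in RefSeq, so most of the pseudogenes there were not measured by a single-gene probe set.

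RNA was hybridised to 6 Affymetrix expression arrays, 2 for each of 3 genotypes: wild type (WT), bin4-1 and bin4-2. The labels give the genotype and the tissue, seedlings, and neither the age, the accession of the plants nor the nature of either mutation. The 2 arrays of a group are separate samples by their labels, but nothing says that separate cultures of plants gave rise to them. The p-values therefore cover only the array-to-array spread, and that spread may be technical. The values are log2 intensities from RMA (robust multi-array average), on which 1 unit is a 2-fold difference. Both alleles were compared with the same 2 WT arrays.

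Pericentromeres flank the centromeres and are mostly heterochromatin: compact, DNA-methylated chromatin rich in transposons and in pseudogenes left by them, with active genes scattered as islands of euchromatin. BIN4 is a DNA-binding component of plant topoisomerase VI, which passes one DNA duplex through another and is needed for endoreduplication, in which a cell copies its genome again and again without dividing. The title of the study asks whether this complex limits the spread of heterochromatin into such islands.

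BIN4 itself (AT5G24630), which lies outside the windows, checks the labels. Its log2 intensity was 3.78 and 3.93 in WT, 3.30 and 3.35 in bin4-1, and 2.92 and 3.05 in bin4-2. All 4 mutant arrays were below both WT arrays, with changes of -0.53 ± 0.11 (SE, bin4-1, limma adjusted p = 0.0015) and -0.87 ± 0.11 (bin4-2, limma adjusted p = 3.18e-05). The position of its probes in the mutated transcript was not analysed here. Correlations across probe sets were 0.995 to 0.997 between arrays of a group and 0.905 to 0.916 between WT and mutant arrays. A gene is called measured here when the annotation used names it by a single-gene probe set. Others may still have probes on the array. Of 10 leaf photosynthesis markers 4 were measured, and their mean log2 intensities in WT lay between 10.16 and 12.25. Of 8 root markers 5 were measured, of 8 seed storage markers 2, of 4 senescence markers 1 and of 5 flower markers 0. M17, on the seed storage list, was at 2.44 and 2.46 in WT, below the 5th percentile of both WT arrays, 2.63. AT3G22490, the other gene of that list measured, was above it, at 3.03 and 3.26.

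Most members were dim in every genotype. Their median log2 intensity was 2.98 and 2.99 on the WT arrays, 2.83 and 2.90 in bin4-1 and 2.90 and 2.78 in bin4-2, against 4.31 to 4.37 over all genes. In WT, 60.4% of members lay under the 25th percentile of all genes. That share was 38.7% among protein-coding members and 80.6% among pseudogenes. No pseudogene and 98 protein-coding members lay above the 75th percentile. The 5 brightest members in WT were AT2G10940, ATPC1, AT5G27850, AT5G35530 and AT5G27700, at means from 10.51 to 11.41. ATPC1, the gamma subunit of the chloroplast ATP synthase, read 11.33 and 11.34 in WT. No background level was set on these arrays, so a change to or from a very low value is a lower bound.

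More members were lower than higher in each mutant. In bin4-1, 49 members were higher (4.27%) and 224 lower (19.5%), where 22.0% of all genes were higher and 25.0% lower. In bin4-2, 46 were higher (4.01%) and 250 lower (21.8%), against 21.1% and 26.6% of all genes. For the mean of both alleles, 52 were higher (4.53%) and 283 lower (24.7%), against 23.2% and 28.8%. A member counted as changed in both alleles when it passed the threshold (limma, Benjamini-Hochberg adjusted p under 0.05 over all genes) in each allele in the same direction. By that rule 40 members rose, which is 3.49% against 19.5% of all genes, and 184 fell, which is 16.0% against 22.2%. None passed in opposite directions, 802 passed in neither allele, 49 in bin4-1 alone and 72 in bin4-2 alone. Past 2-fold in both alleles, 12 members rose (1.05%) and 36 fell (3.14%), against 6.61% and 6.04% of all genes. All 4 mutant arrays were above both WT arrays for 73 members (6.36%) and below both for 442 (38.5%), against 25.9% and 35.8% of all genes. Over the members, the changes had a median of -0.12 in bin4-1 and of -0.14 in bin4-2, beside -0.08 and -0.09 over all genes. When the sorted values of the arrays were made identical (quantile normalization), these medians were -0.0547 and -0.0732, beside -0.0264 and -0.0349. The counts of falls depended on single arrays: without the first bin4-1 array 129 members passed as lower in bin4-1 and 118 as lower in both alleles, and without the second bin4-2 array 160 passed as lower in bin4-2.

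**Figure D1:**
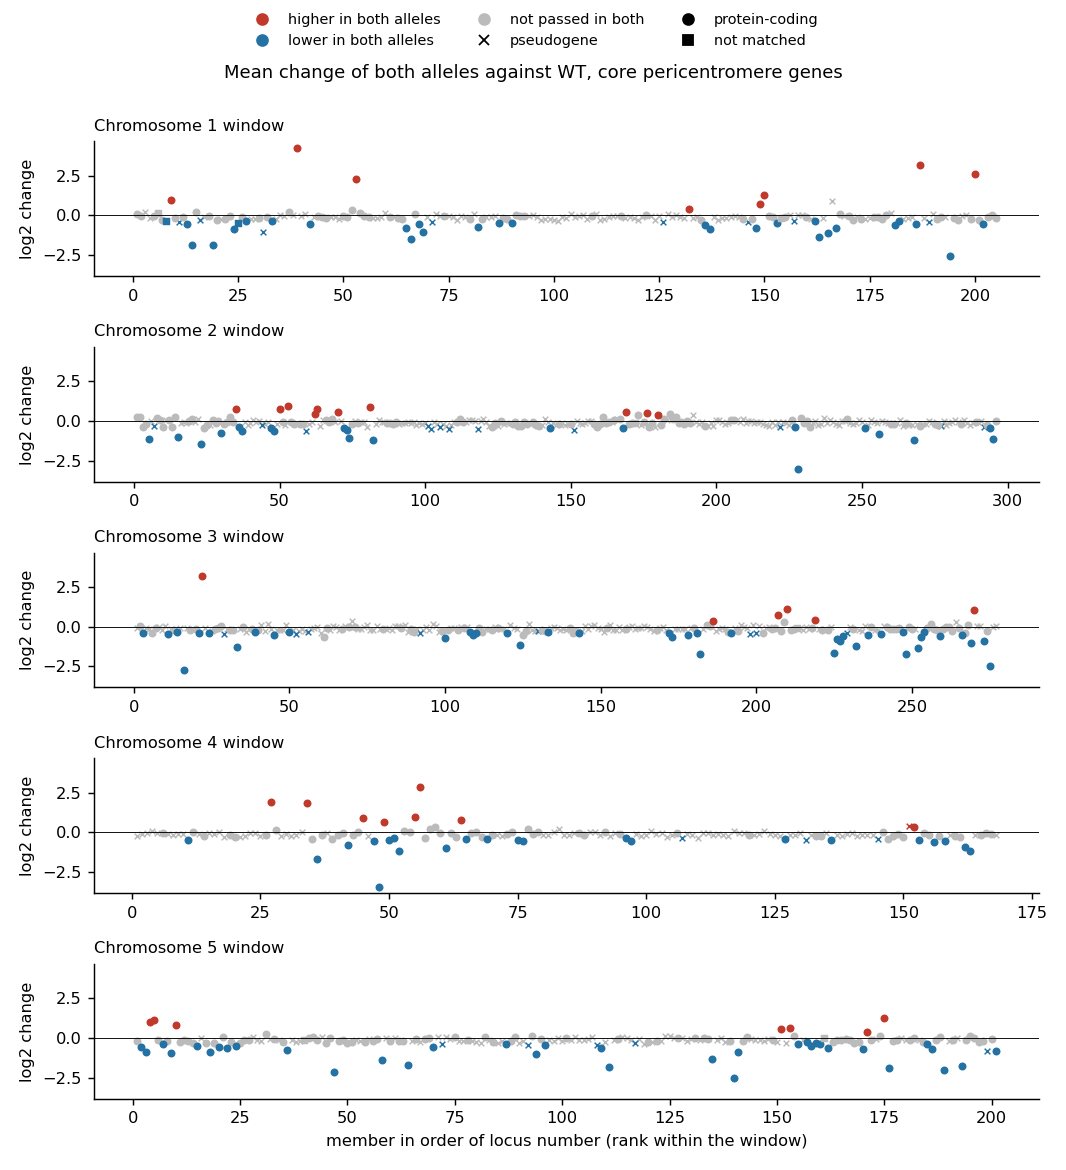
Log2 change (mean of both alleles minus WT, vertical axis) of each member in the order of locus number within its window (horizontal axis, rank), 1 panel per chromosome. Red marks the 40 members higher and blue the 184 lower in both alleles, grey the rest, circles protein-coding genes, crosses pseudogenes and squares unmatched members. Falls are spread along all 5 windows, and the pseudogenes lie between -1.06 and 0.92.

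Protein-coding members carried most of the calls. Of the 551, 39 rose in both alleles (7.08%) and 146 fell (26.5%). All 12 rises and all 36 falls past 2-fold in both alleles were among them. The median level of these genes was 3.47 and 3.48 on the WT arrays, 3.23 and 3.29 in bin4-1 and 3.30 and 3.18 in bin4-2, so the 4 mutant arrays lay below both WT arrays. Their changes had a median of -0.16 in bin4-1 and of -0.19 in bin4-2. Protein-coding genes in the flanks, the bands of loci between the core windows and wider limits such as AT1G31000 and AT1G48000, gave 147 rises (15.8%) and 220 falls (23.7%) among 928 genes. Among 10744 protein-coding genes elsewhere in the nucleus, 22.2% rose and 23.1% fell.

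Of the 588 pseudogenes, 1 rose in both alleles (0.17%) and 36 fell (6.12%), and none changed 2-fold in both. Among pseudogenes of the flanks 1.03% of 195 rose in both alleles and 7.18% fell. Among those elsewhere in the nuclear genome 7.28% of 206 rose and 6.80% fell. Over all genes 19.5% rose and 22.2% fell. Dim genes seldom passed in either class, which limits that comparison. Among the dimmest 25% of all genes, by the average of WT and mutant means, 0% of 498 core pseudogenes rose in both alleles and 3.61% fell. In the same brightness range 0.44% of 228 core protein-coding genes rose and 5.26% fell. For 2498 nuclear protein-coding genes of that range the shares were 1.88% and 4.68%. None of these shares were tested against each other. The median level of the 588 was 2.77 and 2.76 on the WT arrays, 2.63 and 2.69 in bin4-1 and 2.69 and 2.60 in bin4-2. In bin4-1 5 pseudogenes were higher and 57 lower, and in bin4-2 2 were higher and 63 lower. The low end of the mutant arrays was itself lower: their 25th percentile over all probe sets lay at 3.22 to 3.29, against 3.32 and 3.34 in WT. Under quantile normalization the pseudogenes lower in both alleles numbered 15 and those higher 4. Without the first bin4-1 array, 11 pseudogenes were lower in both alleles. The count of pseudogene falls thus depended on the scaling and on single arrays. Under quantile normalization 136 protein-coding members were lower in both alleles, and without the first bin4-1 array 107.

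The single pseudogene that rose in both alleles was AT4G08220, at 4.75 and 4.82 in WT, 5.17 and 5.22 in bin4-1 and 5.25 and 5.10 in bin4-2. The groups did not overlap, with rises of 0.41 ± 0.11 (SE, bin4-1, limma adjusted p = 0.00695) and 0.39 ± 0.11 (bin4-2, limma adjusted p = 0.00931). Its direct neighbour AT4G08230, which is protein-coding, also rose, by 0.31 and 0.39. The largest pseudogene fall was AT1G35612, which read 5.29 and 5.55 in WT, 4.31 and 4.16 in bin4-1 and 4.62 and 4.34 in bin4-2. It changed by -1.18 ± 0.13 and -0.94 ± 0.13 (adjusted p = 1.29e-05 and 8.7e-05). AT5G36270 followed at -0.88 and -0.80, and AT2G05450, AT2G07510 and AT2G06260 changed by -0.54 to -0.67 in bin4-1. Of the 588 pseudogenes RefSeq calls 17 transcribed, of which 1 fell and 0 rose in both alleles. Among all members, 110 pseudogenes and 32 protein-coding genes were measured by probe sets with the suffix s or x. That suffix marks probes shared with near-identical sequences, so signal from copies elsewhere cannot be told apart in these members.

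**Figure D2:**
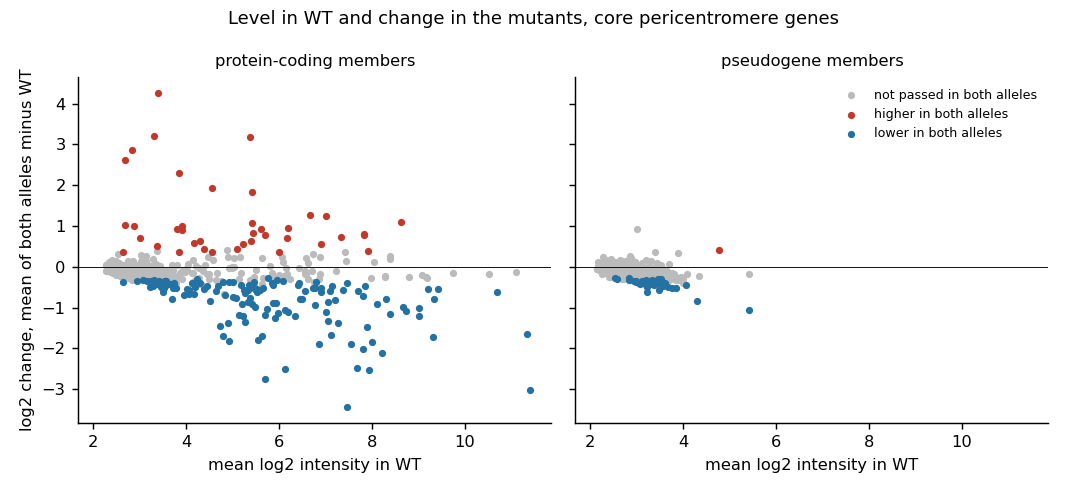
Mean log2 intensity in WT (horizontal axis) against log2 change (mean of both alleles minus WT, vertical axis), with 1 point per member, protein-coding genes on the left and pseudogenes on the right. Red points were higher and blue points lower in both alleles. Pseudogenes reach a WT level of 5.42 at most, and the protein-coding falls extend up to the brightest member.

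Since the members are dimmer than other genes, they were also compared with genes of like brightness. This set was chosen after the results had been seen, and its counts are a description. It holds protein-coding genes whose WT mean and mutant mean, averaged, lie above the median of all genes, 4.40. Of 189 such members, 93 fell in both alleles (49.2%) and 29 rose (15.3%). Of 374 such genes in the flanks, 39.3% fell and 27.5% rose, and of 6020 elsewhere in the nucleus, 29.0% fell and 31.7% rose. The brighter members changed by a median of -0.32 in bin4-1 and of -0.36 in bin4-2, beside 0.03 and 0.02 for the nuclear genes elsewhere. Over the alternative settings, the share that fell ranged from 40.7% to 54.1% in the core. It ranged from 32.9% to 40.1% in the flanks and from 24.7% to 30.3% elsewhere.

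The share of brighter members that fell was 62.5% of 32 on chromosome 1, 31.6% of 38 on chromosome 2, 55.9% of 34 on chromosome 3, 53.1% of 32 on chromosome 4 and 47.2% of 53 on chromosome 5. Rises numbered 5, 6, 4, 7 and 7 in the same order, so falls outnumbered rises in every window. Falls also outnumbered rises in the flanks of chromosomes 1, 2, 4 and 5, but not of chromosome 3 (26 falls, 33 rises). The share that fell in the flanks was 47.8% on chromosome 2 and 54.8% on chromosome 4, above that of the core there. Among the core windows, chromosome 2 had the lowest share of falls and a median change of -0.05 for the mean of both alleles. Part of its window, AT2G07660 to AT2G07840, is an insertion of mitochondrial DNA, whose probes may bind mitochondrial transcripts. Without the insertion, 11 of 33 brighter members of chromosome 2 fell, 5 rose and the median was -0.26. Of the 34 members in the insertion, AT2G07708, AT2G07722 and AT2G07732 rose in both alleles and AT2G07707 fell, all measured by probe sets with the suffix s. These are 8.82% and 2.94% of the 34, against 19.5% and 22.2% of all genes.

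**Figure D3:**
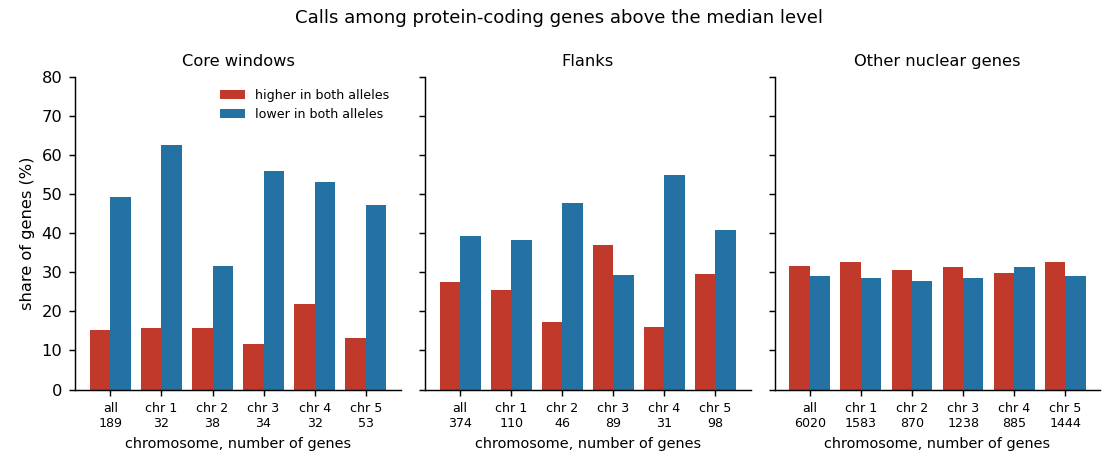
Share of protein-coding genes above the median level (vertical axis, percent) that were higher (red) or lower (blue) in both alleles, for the core windows, the flanks and the other nuclear genes, in all and by chromosome, with the number of genes under each pair of bars. In the core the blue bar is the taller one on all 5 chromosomes, from 31.6% to 62.5%. In the flanks it is the taller one on chromosomes 1, 2, 4 and 5.

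Falls and rises were found along the whole length of the windows. Each window was divided into 5 slices of near-equal numbers of measured members, and the slices were pooled over chromosomes. The share that fell in both alleles was 19.8% in the first slice, 15.3% in the second, 13.5% in the fourth and 21.5% in the last. There the share that rose was 4.74%, 4.37%, 4.37% and 3.07%. The middle slice, nearest the middle of each window, had 23 falls and 2 rises among 229 members, and 88 of these were protein-coding. It was the slice with the lowest share of both. Among protein-coding members the falls were 27.8%, 23.5%, 20.5%, 26.4% and 31.9% in the same order.

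At the 10 borders of the windows, the 10 measured members just inside held 1 fall in both alleles and no rise, and the 10 genes just outside held 2 falls and no rise. Changes just inside ran from -0.81 to 0.27 in bin4-1, and just outside from -0.54 to 0.01. The one fall inside was AT5G36290, at -0.81 and -0.83. Over all genes 19.5% rose and 22.2% fell. Apart from AT5G36290 and AT5G27700, the genes at the borders were dim in WT, with means of 3.54 at most, and many were pseudogenes. Levels this low limit what the borders can show, and no difference across them was tested.

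Few pairs of direct neighbours both passed. Of 405 pairs of members that are next to each other in RefSeq, both rose in 5 (1.23%), both fell in 11 (2.72%) and they went opposite ways in 7 (1.73%). Over 6051 such pairs of nuclear genes the shares were 5.42%, 5.49% and 8.76%. Single calls were also fewer among members, with 3.49% rising and 16.0% falling against 19.5% and 22.2% of all genes. The pair shares depend on these rates, and whether neighbours changed together beyond them was not tested. The only run of 3 neighbours with the same call was AT5G35430, AT5G35450 and AT5G35460, which fell by 0.27 to 0.47 in the mean of both alleles. The largest neighbouring rises were NDB2, an external NAD(P)H dehydrogenase of mitochondria, and AT4G05030. NDB2 was at 6.33 and 6.04 in WT, 7.26 and 7.19 in bin4-1 and 7.05 and 7.09 in bin4-2, and AT4G05030 is given below. Pairs that went opposite ways included AT1G43900, which fell by 0.51 and 0.55, beside AT1G43910, which rose by 3.14 and 3.24. Another was AT5G27820, at -1.04 and -0.81, beside AT5G27830, at 0.93 and 0.73.

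The 40 rises had a median change of 0.85 in bin4-1 and 0.82 in bin4-2, and 14 of them exceeded 2-fold in the mean of both alleles. AT1G35710, on chromosome 1, was the largest, with 3.44 and 3.35 in WT, 7.78 and 7.87 in bin4-1 and 7.45 and 7.54 in bin4-2. It went from under the median level of all genes to well above it, 21.5-fold higher in bin4-1 (log2 4.43 ± 0.10, SE, limma adjusted p = 2.21e-10) and 17.1-fold higher in bin4-2 (4.10 ± 0.10, adjusted p = 2.51e-10). AT1G43910, on the same chromosome, read 5.29 and 5.44 in WT, 8.54 and 8.47 in bin4-1 and 8.55 and 8.65 in bin4-2. Both alleles lay close together there, with rises of 3.14 ± 0.11 and 3.24 ± 0.11. AT4G05030 read 2.86 and 2.82 in WT, 5.59 and 5.65 in bin4-1 and 5.75 and 5.80 in bin4-2, and was thus among the dimmest genes in WT. AT1G44130 rose by 2.60 and 2.65, and AT1G36060 by 2.54 and 2.08. AT4G04460 rose by 1.97 and 1.88, and AT5G35735, the largest rise of chromosome 5, by 1.23 and 1.24. On chromosome 2 the largest rise was AT2G05320, at 3.59 and 4.04 in WT, 4.97 and 4.69 in bin4-1 and 4.45 and 4.86 in bin4-2. Its groups did not overlap, but its arrays were more spread than those of the other large rises. These loci carry no symbol in the annotation used here, and no function is described for them. Some of them, such as AT1G35710, AT1G36060 and AT5G35735, are counted on the lists below.

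The 184 falls had a median of -0.52 in bin4-1 and of -0.54 in bin4-2, and 38 of them exceeded 2-fold in the mean of both alleles. MSRB6, a methionine sulfoxide reductase that repairs oxidised methionine, was the largest. It read 7.38 and 7.54 in WT, 3.67 and 3.87 in bin4-1 and 4.15 and 4.41 in bin4-2. Its changes were -3.70 ± 0.12 (SE, bin4-1, limma adjusted p = 1.01e-09) and -3.18 ± 0.12 (bin4-2, limma adjusted p = 2.84e-09), and bin4-2 minus bin4-1 did not pass the test (0.52 ± 0.12, adjusted p = 0.193). AT2G10940, the brightest member, read 11.46 and 11.36 in WT, 8.09 and 8.31 in bin4-1 and 8.72 and 8.46 in bin4-2. Its change was -3.21 ± 0.12 and -2.82 ± 0.12. RALFL27, a RALF-like gene of a family of secreted signalling peptides, read 5.79 and 5.60 in WT, 2.91 and 2.89 in bin4-1 and 2.96 and 3.02 in bin4-2. Its mutant arrays were at the low end of the array, so its change of -2.79 ± 0.11 and -2.70 ± 0.11 is a lower bound in size. AT1G44000 read 7.94 and 7.95 in WT, 5.18 and 5.20 in bin4-1 and 5.44 and 5.84 in bin4-2. AT3G44450 changed by -2.70 and -2.30 and AT5G35170 by -2.51 and -2.47. AT5G28500, AT5G35970, AT5G35740 and AT1G35340 completed the largest falls, at -1.94 to -2.25 in bin4-1 and -1.70 to -1.98 in bin4-2. Among the 38 falls past 2-fold, 29 were larger in bin4-1 than in bin4-2, but no one of them differed between the alleles past the threshold. Of all 184 falls 103 were larger in bin4-1, of the 40 rises 16, and of the 14 rises past 2-fold 4. Such counts were not made over all genes, and an allele difference in size was not tested over the members.

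**Figure D4:**
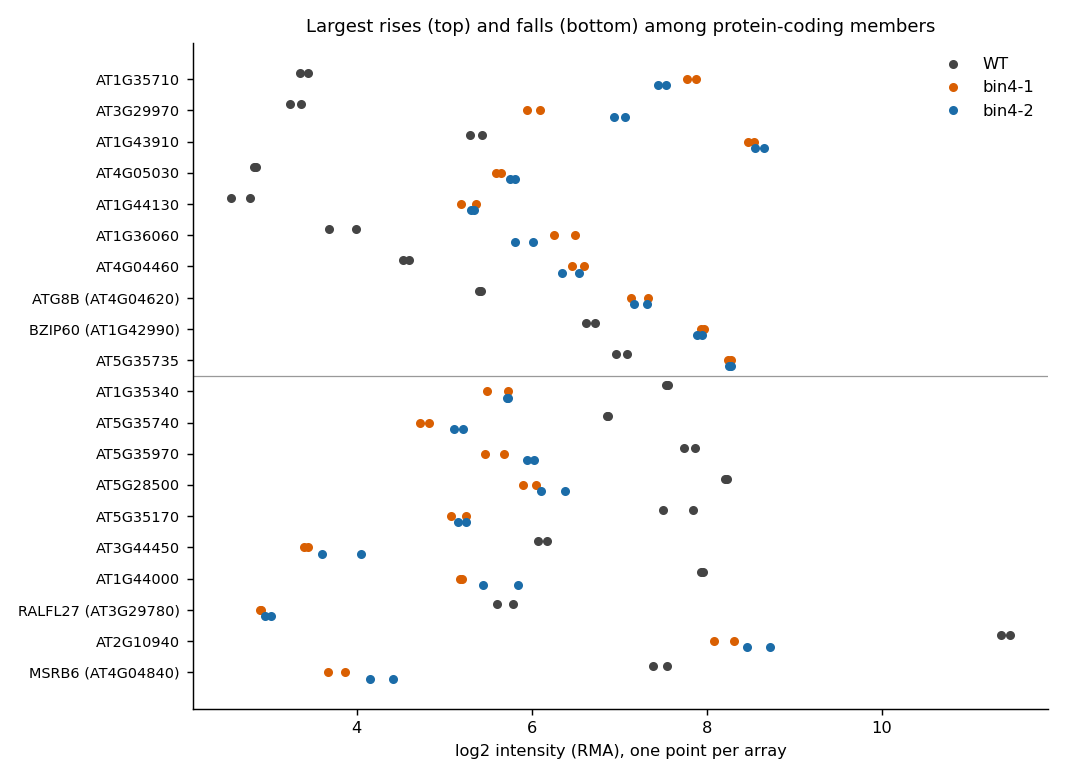
Log2 intensity (horizontal axis) of the 10 largest rises (above the line) and the 10 largest falls (below it) among protein-coding members, with 1 point per array and WT in grey, bin4-1 in orange and bin4-2 in blue. In each of these genes all 4 mutant points lie on 1 side of both WT points, and MSRB6 falls from 7.38 and 7.54 to between 3.67 and 4.41.

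Of all members, 51 carry a symbol in RefSeq, and the following describes these by what they do. The counts on lists also include loci without a symbol. Of the 51, 6 rose and 19 fell in both alleles. Among all protein-coding members 7.08% rose and 26.5% fell, and among all genes 19.5% and 22.2%. Of a list of photosynthesis and plastid loci 6 are members, and these 6 fell in both alleles, as did 22.2% of all genes, with a median change of -1.69 in the mean of both alleles. ATPC1 went from 11.33 and 11.34 in WT to 9.62 and 9.50 in bin4-1 and 9.77 and 9.85 in bin4-2. CCB3, which takes part in attaching heme to cytochrome b6, read 5.60 and 5.49 in WT, 3.63 and 3.70 in bin4-1 and 3.79 and 3.91 in bin4-2. ATPC1 was 3.43- and 2.88-fold lower and CCB3 3.68- and 3.23-fold lower. The plastid thioredoxin gene ty2 changed by -1.55 ± 0.10 and -1.22 ± 0.10, and SAPX, the stromal ascorbate peroxidase, by -0.92 ± 0.11 and -0.90 ± 0.11.

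The leaf photosynthesis markers, which lie outside the windows, moved the same way: 4 of the 4 measured fell in both alleles. Their summed linear intensity was 9983 and 10208 in WT, 2388 and 2410 in bin4-1 and 2849 and 2936 in bin4-2. The 5 measured root markers summed to 669 and 676 in WT, 438 and 445 in bin4-1 and 314 on both bin4-2 arrays, and 2 of them fell in both alleles. The 2 seed storage markers summed to 11.6 to 15.1 on every array, and the senescence marker SAG101 rose by 1.32 and 1.47. Fewer cells of a type and less RNA per cell cannot be told apart in whole seedlings, and the part of tissue makeup in these results was not tested. Without the 6 photosynthesis and plastid members, 87 of 183 brighter protein-coding members fell (47.5%) and 29 rose (15.8%). Only loci on that short list were left out, so this count does not test tissue makeup.

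Redox genes went both ways within 1 family. MSRB3, MSRB5 and MSRB6 are methionine sulfoxide reductases that lie close together in the chromosome 4 window. MSRB3 rose, from 5.62 and 5.61 in WT to 6.55 and 6.43 in bin4-1 and 6.55 and 6.59 in bin4-2. MSRB5, next to MSRB6, fell, from 9.27 and 9.14 in WT to 8.55 and 8.57 in bin4-1 and 8.70 and 8.85 in bin4-2. The changes were 0.87 ± 0.10 and 0.96 ± 0.10 for MSRB3, and -0.65 ± 0.11 and -0.43 ± 0.11 for MSRB5. GSTU27, a glutathione S-transferase, fell by 0.44 and 0.51, and GME, an enzyme of ascorbate synthesis, by 0.48 and 0.60. Of the 6 members on the redox list 2 rose and 4 fell, beside 19.5% and 22.2% of all genes.

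The next members, which act in autophagy or at the endoplasmic reticulum, were brought together after their values were seen and form no list. ATG8B, a ubiquitin-like protein of autophagosome membranes, read 5.40 and 5.42 in WT, 7.13 and 7.32 in bin4-1 and 7.17 and 7.32 in bin4-2. It rose by 1.82 ± 0.11 and 1.83 ± 0.11 (limma adjusted p = 8.28e-08 and 8.78e-08), and its relative ATG8D by 0.46 and 0.66. BZIP60, a transcription factor of the unfolded protein response, read 6.62 and 6.72 in WT, 7.96 and 7.93 in bin4-1 and 7.95 and 7.89 in bin4-2. DER2.2, a derlin of the pathway that removes misfolded proteins from the endoplasmic reticulum, rose by 0.61 and 0.66. OS9, a lectin of the same pathway, read 6.19 and 6.11 in WT, 6.14 and 6.19 in bin4-1 and 6.19 and 6.00 in bin4-2, and did not pass the test in either allele. VPS2.1, an ESCRT-III subunit, did not pass either, at 0.10 and 0.13.

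SEU, a transcriptional co-repressor of flower development, changed by -0.53 ± 0.11 and -0.67 ± 0.11. DAYSLEEPER, which derives from a hAT transposase, read 6.38 and 6.48 in WT, 6.07 and 5.88 in bin4-1 and 6.10 and 6.05 in bin4-2. All 4 of its mutant arrays were below both WT arrays, with changes of -0.46 and -0.36. YAO, a WD-repeat protein of the nucleolus, changed by -0.45 and -0.58, PCN, a WD-repeat protein of embryo and meristem development, by -0.50 and -0.63, and bZIP42 by -0.32 and -0.36. NRPB6B, a small RNA polymerase subunit, read 6.74 and 6.52 in WT and between 6.53 and 6.83 in the mutants. FANCM, a helicase that limits meiotic crossovers, HDA7, a histone deacetylase, AGL79 and WRKY42 were dim, at 2.72 to 3.32 on the WT arrays, and none passed in both alleles. On the lists, DNA and chromatin had 4 falls among 6 members, translation 2 falls among 6, and transcription and light 2 rises and 1 fall among 6, where 19.5% of all genes rose and 22.2% fell in both alleles. Of 28 genes of silencing and chromatin elsewhere in the genome 2 were named by a single-gene probe set, UBP26 and DME, and neither passed.

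Other symbol-bearing members that fell in both alleles act in metabolism and signalling. ALN, the allantoinase of purine breakdown, read 5.18 and 5.12 in WT, 3.90 and 3.74 in bin4-1 and 4.13 and 4.08 in bin4-2, a change of -1.33 ± 0.10 and -1.04 ± 0.10. GLR3.3, a glutamate receptor-like channel, changed by -0.84 and -0.82, UGT80B1, a sterol glucosyltransferase, by -0.73 and -0.81, iqd33, of the calmodulin-binding IQD family, by -0.58 and -0.76, and AT5MAT, an anthocyanin malonyltransferase, by -0.41 and -0.38. TOPP8, a type 1 protein phosphatase, passed in bin4-1 alone at -0.30 and CEF in bin4-2 alone at -0.46. Of the remaining lists, ubiquitin and proteasome had 1 rise and 1 fall among 4 members, kinases and calcium 2 rises among 4, nitrogen and amino acids 1 fall among 3, and lipids and hormones 1 rise among 3. Cell wall and sugars had 1 rise and 2 falls among 3, transport 1 rise and 1 fall among 4, and protein folding and stress 1 rise among 2. These counts of 1 or 2 on short lists stand beside 19.5% of all genes that rose and 22.2% that fell, and nothing particular to a list is read from them.

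Between the alleles 3 members differed, 0.262% of the members against 0.247% of all genes. In bin4-2 minus bin4-1, 1 was higher and 2 were lower, against 0.12% and 0.127% of all genes. They were AT1G43590, QQS and AT3G29970. AT1G43590, a pseudogene, read 3.06 and 2.95 in WT, 4.96 and 5.15 in bin4-1 and 2.93 and 2.64 in bin4-2. It was high on both bin4-1 arrays only, with bin4-2 lower than bin4-1 by 4.81-fold (log2 difference -2.27 ± 0.13, SE, limma adjusted p = 1.51e-05). Its protein-coding neighbour AT1G43580 fell in both alleles, at -1.03 and -1.21, and did not pass the test between them (-0.18 ± 0.12, limma adjusted p = 0.877).

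QQS (AT3G30720), which acts on starch content, read 4.66 and 4.99 in WT, 4.85 and 4.76 in bin4-1 and 3.44 and 3.56 in bin4-2. It was low in bin4-2 alone, and bin4-2 minus bin4-1 was -1.31 ± 0.13 (limma adjusted p = 0.0017). AT3G29970 read 3.37 and 3.24 in WT, 6.10 and 5.95 in bin4-1 and 6.94 and 7.06 in bin4-2. It rose in both alleles and more in bin4-2, by a further 0.98 ± 0.11 (adjusted p = 0.00358). Without the second bin4-1 array that difference was 0.91 (adjusted p = 0.0513), and without the second bin4-2 array 0.92 (adjusted p = 0.0839). The 4 nearest measured members around QQS and the 4 around AT3G29970 did not pass the test between the alleles, with differences from -0.17 to 0.16. None of them was a direct neighbour. Counted in RefSeq gene order, they lay at places -22 to 7 from QQS and -8 to 7 from AT3G29970.

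**Figure D5:**
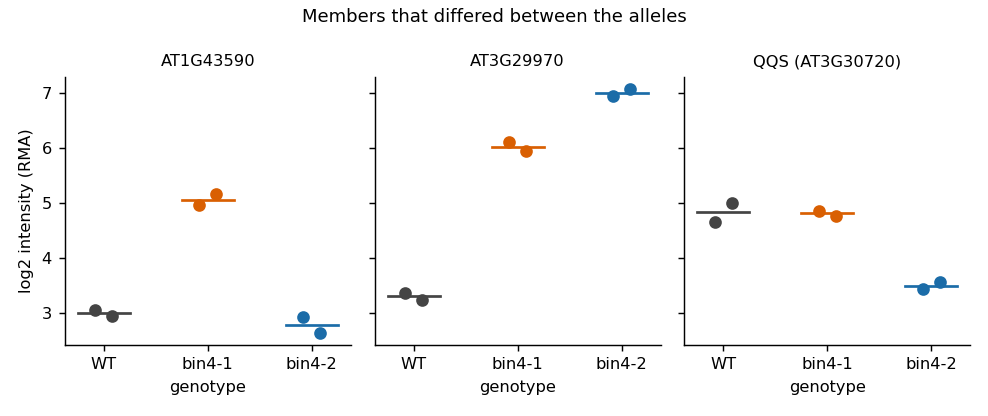
Log2 intensity (vertical axis) of the 3 members that differed between the alleles, by genotype (horizontal axis), with 1 point per array and a line at the mean of 2 arrays. AT1G43590 is high in bin4-1 alone, QQS is low in bin4-2 alone, and AT3G29970 is high in both, with bin4-2 at 6.94 and 7.06.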

How the data were processed

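The authors deposited intensities made with RMA, per the submitters' processing notes. Its version is not given in the sources used here. They are on a linear scale, so log2 was taken first. The array has 22810 probe sets, of which 64 are controls. The platform annotation names 1 gene for 13513, several for 503 and none listed here for 8730. For 147 genes with more than 1 probe set the brightest was kept, which left 13355 genes, and 13436 of the single-gene probe sets matched RefSeq by gene identifier. All genes, in the text above, means these 13355 and not every gene on the array.

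The model was fitted to all genes in R 4.3.3 by limma 3.58.1 (lmFit, then eBayes, 3 group means, all 6 arrays, two-sided, Benjamini-Hochberg over all genes, threshold 0.05). It had 3 residual degrees of freedom and 8.25 prior ones. It was also run on simulated data with independent noise drawn from its own variances. That run cannot check the scaling of the arrays or whether the 2 arrays of a group are independent. The number of arrays limits the precision. Plots used matplotlib 3.10.9, and tables numpy 2.4.6 and pandas 2.3.3 in Python 3.11.15.

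The members, the gene lists and the rules were chosen with earlier results of these data known. Named genes are the 10 largest rises and falls among protein-coding members and the 5 largest among the others, with all mutant arrays beyond both WT arrays, the largest in each window, members that differed between alleles, the 5 brightest in WT and list members. Members with a symbol and neighbouring pairs outside this rule were chosen after their values were seen. List membership of loci without a symbol comes from general knowledge, not from the annotation used here. Alternatives were other normalizations and filters, an intensity trend, all probe sets, a replicate block, each array left out, probe sets without the suffix s or x, and the windows without the mitochondrial insertion. Sequencing and chromatin experiments named in the design text, and the mutant caa39, were not analysed here. Same-numbered arrays did not deviate together: the correlations of their deviations from the group means were -0.00, 0.08 and -0.05.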

Additional observations from a re-analysis of the deposited data

Results flagged for a closer look

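For 3 members the change against WT differed between the alleles by limma's test of the difference itself. bin4-2 minus bin4-1 was -2.27 for the pseudogene AT1G43590, -1.31 for QQS (AT3G30720) and 0.98 for AT3G29970. The last of these lost its call without the second array of either allele. Groups of 2 arrays are too small to test single arrays for outliers.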

How the results depend on the processing

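The members' median changes against WT stayed below 0 under the alternatives tried. The median of bin4-2 minus bin4-1, -0.0112, did not keep its sign: it was 0.0013 with equal array medians and 0.0135 without the genes under a mean log2 of 5. Under quantile normalization the median change of the members was -0.0547 in bin4-1, -0.0732 in bin4-2 and -0.0665 in the mean of both alleles. When genes under a mean log2 of 5 were left out, 150 members remained, of which 82, 88 and 91 were lower in bin4-1, bin4-2 and the mean, with medians of -0.30, -0.32 and -0.30, and 0 were lower in bin4-2 than in bin4-1 (limma). With an intensity trend 3 members were higher in bin4-2 than in bin4-1. Leaving out each array in turn gave 38 to 50 members higher and 129 to 219 lower in bin4-1 (median -0.15 to -0.11), 37 to 43 and 160 to 228 in bin4-2 (median -0.19 to -0.11), and 45 to 52 and 212 to 282 in the mean (median -0.16 to -0.12). Between the alleles it gave 0 to 1 higher and 2 to 3 lower (median -0.05 to 0.02). Among the brighter protein-coding members it gave 24 to 27 higher and 77 to 90 lower in both alleles. With the replicate number as a block, 48 members were higher and 224 lower in bin4-1, 45 and 247 in bin4-2, and 52 and 278 in the mean, with 1 and 2 between the alleles, and the numbers are not known to pair the arrays. Among single genes, AT5G27850 passed in the mean of both alleles with an intensity trend (limma adjusted p = 0.04997) and AT5G27700 did so with it and with the filter on dim genes (adjusted p = 0.00368 and 0.0407). Levels near the low end of the arrays limit what can be said of pseudogenes.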
